A study of Homo sapiens with 6 samples.

Results

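The genes described here are 32 carriers listed as amino acid transporters, apart from the cystine/glutamate exchanger known as system xc-. Among them is SLC43A3, which is known for moving purine bases. They form a list of gene symbols fixed by carrier function, with no threshold on measured values, although earlier results of these data were known. All 32 were found, each as a single Ensembl gene, among 35019 genes. RNA had been sequenced from BEAS-2B cells, an immortalised human bronchial epithelial line, in 3 libraries of RSL3+ID and 3 of RSL3. Both groups received 2 µM RSL3 for 24 h. RSL3 is a covalent inhibitor of GPX4, the enzyme that clears lipid peroxides, and triggers ferroptosis, a form of cell death driven by iron and lipid oxidation. The RSL3+ID cells had also been given indirubin (ID), a bis-indole dye that inhibits kinases and binds the aryl hydrocarbon receptor, 2 h before RSL3. Its dose is known only as a range of 7.5 to 30 µM. Cells without RSL3, and cells with indirubin alone, were not analysed here, so an altered response to RSL3 and an effect of indirubin by itself cannot be told apart. The sample titles all carry the prefix RSL3+M, an abbreviation left unexplained, so the groups rest on the treatment field and the column names. Separate cultures are not named for the libraries of a group, and p-values therefore measure only how far these libraries differ among themselves, which could be technical variation.

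Amino acid carriers differ in what drives them and where they sit. Many, but not all, sodium-coupled carriers of the SLC1, SLC6 and SLC38 families concentrate amino acids in the cell. Exchangers of the SLC7 family trade an internal amino acid such as glutamine for an external one such as leucine. Several of these exchangers need the heavy chain SLC3A2. Carriers in the lysosomal membrane release amino acids from protein breakdown and help to signal their supply to the kinase mTORC1, and mitochondrial carriers pass aspartate, glutamate and ornithine across the inner membrane. Many surface carriers are induced by ATF4, the transcription factor of the amino acid response. Glutamine taken up by such carriers feeds glutamate to glutathione synthesis, which GPX4 depends on.

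The libraries held between 15206183 and 18506637 reads on listed genes, and a count of 0 allowed up to between 0.162 and 0.197 CPM (counts scaled to the library total; 3 reads, counting error only). Values below are normalised counts, meaning reads divided by the authors' size factor for the library, and error is the SD over 3 libraries per group. Of the epithelial markers, KRT7, KRT8 and KRT18 were abundant, with means of 12839, 20654 and 6666 normalised counts over the 6 libraries. KRT19, EPCAM and CLDN4 averaged 475, 42.3 and 24.7, while CDH1 (9.82) and KRT5 (2.06) fell below the filter. KRT18, an epithelial keratin, was lower in RSL3+ID (log2 fold change −0.66, adjusted p = 0.0361). The mesenchymal gene VIM averaged 8106, and CDH2, COL1A1, PDGFRB and COL1A2 averaged 1164, 1049, 344 and 119. The pan-leukocyte marker PTPRC averaged 0.963, the T cell marker CD3E had no read, and the endothelial marker PECAM1 averaged 3.63. In bulk RNA, fewer cells expressing a gene and less of its RNA per cell cannot be told apart.

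The transporters differed widely in level. Of the 32 genes, 7 averaged at least 1000 normalised counts over the 6 libraries, 26 at least 100, and 5 less than 50. Counts on all members together averaged 54063 ± 8259 in RSL3+ID and 52914 ± 1953 in RSL3. They took between 0.282% and 0.360% of the reads in RSL3+ID libraries and between 0.322% and 0.341% in RSL3 libraries. The 4 most abundant genes, SLC1A5, SLC7A5, SLC38A2 and SLC1A4, held between 78.7% and 82.9% of the members' counts in RSL3+ID and between 79.0% and 79.7% in RSL3. Per kilobase of exon, which allows levels to be compared between genes, SLC1A5 averaged 5703 ± 448 in RSL3+ID and 3816 ± 292 in RSL3. SLC7A5 followed with 2952 ± 776 in RSL3+ID and 3716 ± 219 in RSL3, so that these genes lay within each other's spread in RSL3 only. SLC38A2 averaged 1009 ± 363 per kilobase in RSL3+ID and 1193 ± 397 in RSL3, and SLC1A4 643 ± 64.9 and 547 ± 41.6. SLC6A6, SLC7A1, SLC38A1 and SLC25A22 came next, between 105 and 220.4 in RSL3+ID and between 112 and 203 in RSL3.

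**Figure D1:**
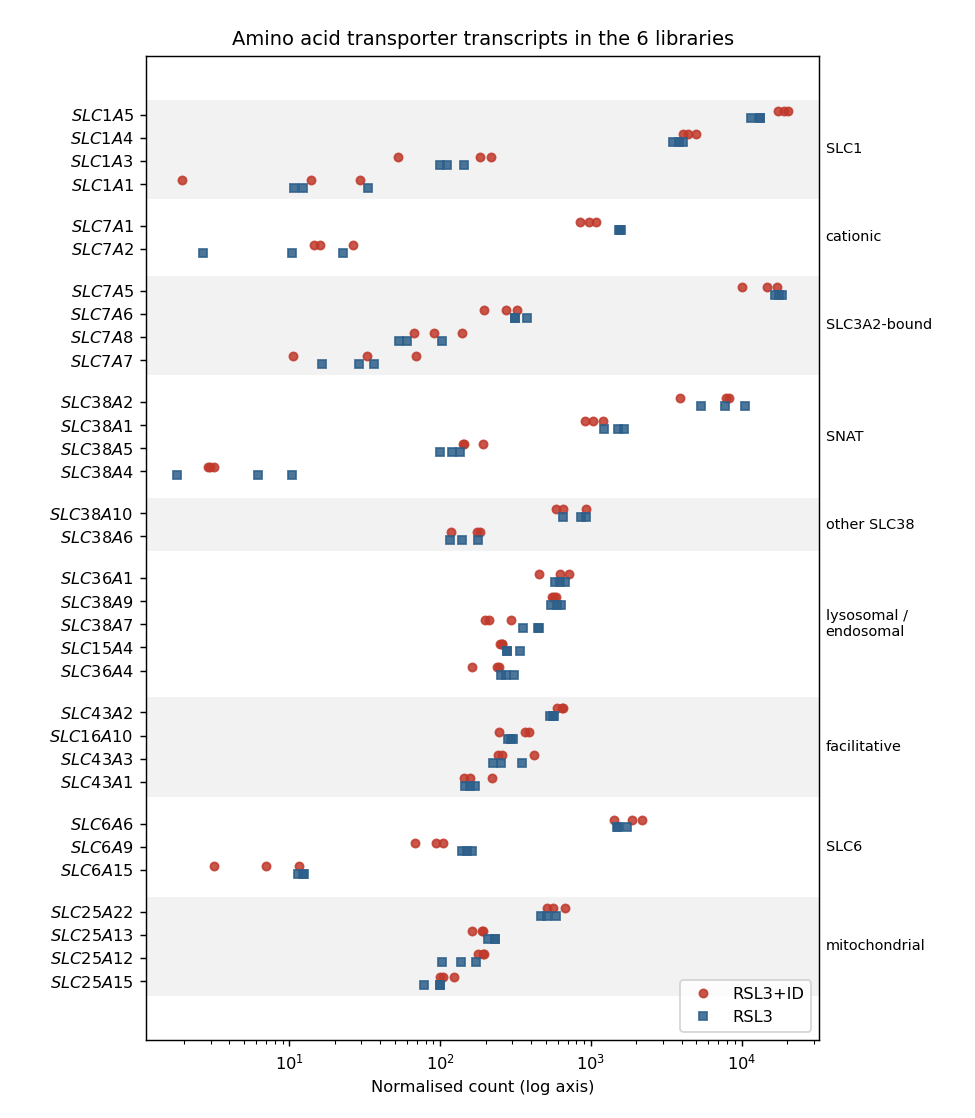
Normalised counts (log axis) of the 32 transporter genes in each library, with RSL3+ID libraries as circles above RSL3 libraries as squares in each row, grouped by role. Mean levels run from 4.56 for SLC38A4 to 15859 for SLC1A5. The groups separate for SLC1A5 and SLC7A1 and overlap for most other genes.

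With indirubin present, SLC1A5, the main glutamine importer of the cell surface, rose and SLC7A1, the main importer of arginine and lysine, fell. These were the members that passed the test (limma on log2(normalised count + 1), Benjamini-Hochberg adjusted p under 0.05 over 14188 genes), 2 of the 30 with a mean of at least 10 normalised counts. Of all tested genes 1.91% passed, 1.08% higher and 0.832% lower in RSL3+ID. Fold changes on this scale understate those of low genes. SLC38A4 and SLC6A15 were below the filter and were not tested. Among the 30, 16 had positive and 14 negative estimates, where 48.5% of all tested genes had positive ones. Their median log2 fold change was 0.12, against −0.02 over all tested genes, and it lay between −0.09 and 0.08 with any 1 library left out. The median size of the change, whatever its sign, was 0.25 log2 units for the members and 0.28 for all tested genes. The libraries of the groups did not overlap for 11 of the 30 members, 4 higher and 7 lower in RSL3+ID, against 25.4% of all tested genes. The authors' deposited table of changed genes lists 3 members, SLC1A5, SLC7A1 and SLC38A7, and holds 6.3% of the genes tested here.

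**Figure D2:**
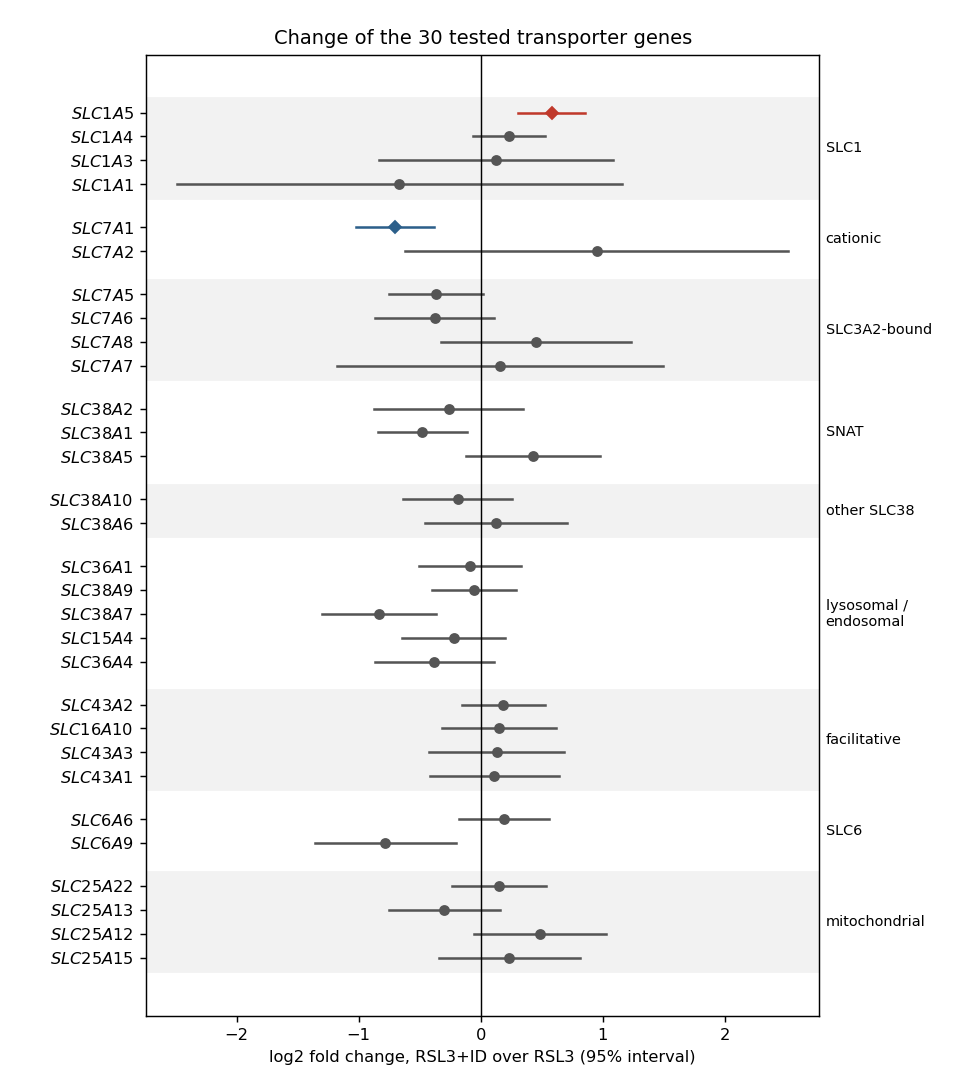
Log2 fold changes of the 30 tested genes, RSL3+ID over RSL3, with 95% intervals from limma, grouped by role. Diamonds mark SLC1A5 (0.58) and SLC7A1 (−0.70), which passed at an adjusted p under 0.05. Circles mark the others, whose intervals are widest for the low genes SLC1A1, SLC7A2 and SLC7A7.

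To show the start regions of the genes that were called here or listed by the authors, the 250 bases before and 30 bases from the RefSeq gene start are given (GRCh38.p14), 5′ to 3′ on the gene's strand. SLC1A5 lies at chr19:46788565-46788844, SLC7A1 at chr13:29595659-29595938 and SLC38A7 at chr16:58684741-58685020, all on the minus strand. Capitals mark matches to TGATGNAA, the core of the C/EBP-ATF response element through which ATF4 acts, or to CACGTG, the E-box bound by MYC and TFEB, searched on both strands.
SLC1A5: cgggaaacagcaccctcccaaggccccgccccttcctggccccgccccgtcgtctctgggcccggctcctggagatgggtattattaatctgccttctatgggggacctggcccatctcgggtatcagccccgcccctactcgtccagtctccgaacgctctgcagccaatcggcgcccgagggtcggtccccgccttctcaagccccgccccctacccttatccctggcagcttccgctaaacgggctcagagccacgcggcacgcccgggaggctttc
SLC7A1: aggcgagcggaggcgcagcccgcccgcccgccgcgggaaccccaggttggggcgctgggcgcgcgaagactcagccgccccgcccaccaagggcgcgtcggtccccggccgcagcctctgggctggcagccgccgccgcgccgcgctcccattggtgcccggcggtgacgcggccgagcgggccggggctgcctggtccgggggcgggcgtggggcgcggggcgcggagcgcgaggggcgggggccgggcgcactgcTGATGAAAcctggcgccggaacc
SLC38A7: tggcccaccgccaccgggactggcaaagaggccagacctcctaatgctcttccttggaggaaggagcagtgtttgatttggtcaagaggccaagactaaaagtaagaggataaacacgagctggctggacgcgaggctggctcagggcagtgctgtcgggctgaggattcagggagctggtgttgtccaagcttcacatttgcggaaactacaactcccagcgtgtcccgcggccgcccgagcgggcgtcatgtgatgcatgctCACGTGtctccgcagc
With the start base counted as 1, the SLC7A1 match begins at position 8 and the SLC38A7 match at position 15, both on the gene's strand, and the SLC1A5 window holds neither sequence. Of the 32 members 28 had an entry. TGATGNAA was found for 3 of them (SLC1A3, SLC7A1 and SLC38A1) and in 3.49% of 27305 windows of the same length, or 1.71% of the 11167 windows of tested genes. CACGTG was found for 5 (SLC7A5, SLC38A5, SLC38A7, SLC43A1 and SLC25A13) and in 7.14% of all windows, or 9.72% of those of tested genes. The 2 motifs did not overlap in any member. The windows with a TGATGNAA match belong to genes with log2 fold changes of 0.13 (SLC1A3), −0.70 (SLC7A1) and −0.48 (SLC38A1). Such matches describe the sequence and are not evidence of binding.

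Among the 4 carriers of the SLC1 family, which use the sodium gradient, SLC1A5 rose. SLC1A5 (ENSG00000105281, chromosome 19 from 46774883 to 46788594 on GRCh38, protein-coding) encodes ASCT2, a carrier of glutamine, serine and other neutral amino acids. It had 20405, 17431 and 19174 normalised counts in the RSL3+ID libraries 1 to 3, against 13283, 11589 and 13272 in the RSL3 libraries. Every RSL3+ID library was above every RSL3 library. The log2 fold change was 0.58 (SE 0.13, adjusted p = 0.0443), or 1.49-fold, and the authors' deposited table gives 0.58 (adjusted p = 0.00471). The adjusted p was 0.108 without RSL3+ID library 1, 0.127 without RSL3+ID library 3, 0.262, 0.198 and 0.103 without RSL3 libraries 1, 2 and 3, and 0.0527 with length and GC trends taken out, so each of these settings ended the call. The log2 fold change was between 0.51 and 0.64 with 1 library left out and 0.55 with those trends taken out. The annotation places exon bases of an antisense gene within SLC1A5, whose reads may be included because the strand setting is not known.

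SLC1A4, which encodes ASCT1, a carrier of serine, alanine and cysteine, had 4941, 4049 and 4388 normalised counts in RSL3+ID, against 4064, 3489 and 3829.5 in RSL3. The groups overlapped narrowly, at RSL3+ID library 2 and RSL3 library 1. A log2 fold change of 0.23 (SE 0.14) did not pass (adjusted p = 0.379). SLC1A3, the glutamate and aspartate carrier EAAT1, had 183, 52.5 and 217 normalised counts in RSL3+ID, against 100.1, 145 and 110.5 in RSL3. RSL3+ID library 2 was the lowest of all 6 libraries for this gene and the other RSL3+ID libraries the highest. Its log2 fold change was 0.13 (SE 0.44, adjusted p = 0.903), and 0.76 without RSL3+ID library 2 (adjusted p = 0.0806). SLC1A1, the glutamate and cysteine carrier EAAT3, averaged 15.1 ± 13.9 in RSL3+ID and 18.7 ± 12.4 in RSL3, a level at which a single library of RSL3+ID had 2 reads.

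The cationic carriers were represented by SLC7A1 and SLC7A2, which bring arginine, lysine and ornithine into the cell. SLC7A1 (ENSG00000139514, chromosome 13 from 29509410 to 29595688, protein-coding) encodes CAT-1, and in rat its first exon holds an amino acid response element. It had 964, 1080.4 and 849 normalised counts in RSL3+ID, against 1569, 1543 and 1570.4 in RSL3. The RSL3 libraries had a coefficient of variation of 0.982%, and all RSL3+ID libraries lay far below them. The log2 fold change was −0.70 (SE 0.15, adjusted p = 0.0416), a 1.63-fold decrease, and the authors' deposited table gives −0.69 (adjusted p = 0.00219). The adjusted p was 0.0824 without RSL3+ID library 1, 0.137 without RSL3+ID library 3 and 0.264, 0.163 and 0.105 without RSL3 libraries 1, 2 and 3, which ended the call, although the fold change stayed between −0.79 and −0.61. No other annotated gene shares exon bases with SLC7A1. SLC7A2, a low-abundance relative, averaged 18.9 ± 6.53 in RSL3+ID and 11.9 ± 10.1 in RSL3 (log2 fold change 0.95, 95% interval −0.62 to 2.52).

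Of the 4 exchangers that pair with the heavy chain SLC3A2, none passed. SLC7A5 encodes LAT1, which imports leucine and other large neutral amino acids in exchange for glutamine. It had 17259, 10007 and 14762 normalised counts in RSL3+ID, against 18616, 16544 and 17742 in RSL3. RSL3+ID library 2 was far below the others, and RSL3+ID library 1 lay within the range of RSL3. Its log2 fold change was −0.37 (SE 0.18, 95% interval −0.75 to 0.02, adjusted p = 0.282), and −0.14 without RSL3+ID library 2. SLC7A5P1, by its symbol a pseudogene of SLC7A5, may share reads with it, but the sequences were not compared. SLC7A6 encodes y+LAT2, which exports arginine in exchange for glutamine and sodium. It averaged 263 ± 64.1 in RSL3+ID and 336 ± 37.1 in RSL3 (log2 fold change −0.38, adjusted p = 0.382). SLC7A8, which encodes LAT2, averaged 99.3 ± 36.8 in RSL3+ID and 71.9 ± 26.5 in RSL3 (0.45, adjusted p = 0.522). SLC7A7, which encodes y+LAT1, averaged 37.3 ± 29.3 and 27.4 ± 10.1 (0.15, adjusted p = 0.917). Their heavy chain SLC3A2 had 68846, 93528 and 67791 normalised counts in RSL3+ID, against 64655, 58765 and 74551 in RSL3. These overlapped, and the log2 fold change was 0.21 (SE 0.15, adjusted p = 0.476). Per kilobase of exon SLC3A2 averaged 14817 in RSL3+ID and 12744 in RSL3, above every member. SLC7A11, which forms system xc- with the same heavy chain, averaged 734 ± 123 in RSL3+ID and 873 ± 92.6 in RSL3 (log2 fold change −0.26, adjusted p = 0.441).

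SLC1A5 and SLC7A5 are described as a pair, because glutamine imported by ASCT2 can be traded by LAT1. This ratio was chosen after the values were seen and carries no test. Per kilobase of exon, SLC1A5 stood to SLC7A5 at 1.68, 2.48 and 1.85 in the RSL3+ID libraries, against 1.02, 0.998 and 1.07 in the RSL3 libraries. All RSL3+ID ratios were above all RSL3 ratios, and RSL3+ID library 2, with the lowest SLC7A5, had the highest ratio.

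The surface carriers of the SLC38 family, called SNATs, couple small neutral amino acids to sodium. SLC38A2 encodes SNAT2, the carrier best known for induction by amino acid shortage. It had 7833, 3908 and 8245 normalised counts in RSL3+ID, against 7691, 10581 and 5351 in RSL3. The groups overlapped and the SD was 35.9% of the mean in RSL3+ID and 33.3% in RSL3, the largest among the members above 1000 counts. The log2 fold change was −0.26 (SE 0.28, 95% interval −0.87 to 0.35, adjusted p = 0.657) and 0.084 without RSL3+ID library 2. SLC38A1, which encodes the glutamine carrier SNAT1, had 1206, 915 and 1034 normalised counts in RSL3+ID, against 1519.9, 1661 and 1225 in RSL3. All RSL3+ID libraries were below all RSL3 libraries, RSL3+ID library 1 narrowly. Its log2 fold change of −0.48 (SE 0.17, unadjusted p = 0.0143 from limma) did not pass adjustment (adjusted p = 0.150). SLC38A5, which encodes SNAT5, a carrier of glutamine, asparagine and histidine, had a positive estimate. There were 143, 144 and 192 normalised counts in RSL3+ID, against 135, 119.8 and 99.1 in RSL3, without overlap but with an adjusted p = 0.378 (log2 fold change 0.43, SE 0.25). SLC38A4, the liver carrier SNAT4, had between 2.89 and 3.17 in RSL3+ID and between 1.79 and 10.3 in RSL3 and was not tested. SLC38A1, SLC38A2 and SLC38A4 lie in 1 cluster on chromosome 12, between 46183063 and 46832408, and averaged 1260.0, 7268 and 4.56 normalised counts over the 6 libraries.

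The other SLC38 carriers have less settled roles. SLC38A10 averaged 721 ± 185 in RSL3+ID and 815 ± 143 in RSL3 (log2 fold change −0.19, adjusted p = 0.662). SLC38A6 averaged 158 ± 35.5 in RSL3+ID and 144 ± 31.2 in RSL3 (0.13, adjusted p = 0.839). Both overlapped between the groups and neither passed.

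All 5 lysosomal and endosomal carriers had negative estimates, between −0.83 and −0.05, but none passed. SLC38A7 (ENSG00000103042, chromosome 16 from 58665109 to 58685104, protein-coding) encodes SNAT7, which exports glutamine and asparagine from lysosomes. It had 294, 212 and 199 normalised counts in RSL3+ID, against 444, 352 and 451 in RSL3. Every RSL3+ID library was below every RSL3 library, and this was the most negative estimate of the 30 members. The log2 fold change was −0.83 (SE 0.21, adjusted p = 0.0692), and it passed without RSL3+ID library 2 (−0.77, adjusted p = 0.0274), a setting in which 9.34% of all tested genes passed. The authors' deposited table gives SLC38A7 a change of −0.82 on the log2 scale (adjusted p = 0.0140).

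SLC36A4, which encodes PAT4, a carrier of proline and tryptophan, had 238, 164 and 246 normalised counts in RSL3+ID, against 273, 307 and 254 in RSL3. The groups did not overlap, although RSL3+ID library 3 and RSL3 library 3 were close. Its log2 fold change was −0.38 (SE 0.22, adjusted p = 0.376). SLC15A4, a histidine and peptide carrier of endolysosomes, had 256, 249 and 256 in RSL3+ID, against 279, 276 and 338 in RSL3. The groups did not overlap, and the RSL3+ID libraries were closer together than those of RSL3 (log2 fold change −0.22, SE 0.19, adjusted p = 0.564). SLC36A1, the lysosomal carrier PAT1, averaged 597 ± 135 in RSL3+ID and 625 ± 46.9 in RSL3 (−0.09, adjusted p = 0.842). SLC38A9, the lysosomal arginine sensor of mTORC1, averaged 569 ± 19.8 and 591 ± 46.1 (log2 fold change −0.05, 95% interval −0.40 to 0.29). Its estimate turned positive with upper-quartile scaling (0.014) and without the length and GC trends (0.045). The summed counts of the 5 genes were 1979, 1891 and 1742 in RSL3+ID, against 2303, 2099.9 and 2218 in RSL3, without overlap. This sum was computed with the members' values known and carries no test.

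All 4 facilitative carriers had positive estimates, from 0.11 to 0.19, and none passed. SLC43A2, which encodes LAT4, a uniporter of branched-chain and aromatic amino acids, had 653, 643 and 593 normalised counts in RSL3+ID, against 558, 531 and 571 in RSL3. The groups did not overlap (log2 fold change 0.19, SE 0.16, adjusted p = 0.553). SLC16A10, the aromatic amino acid carrier TAT1, averaged 333 ± 77.5 in RSL3+ID and 294 ± 10.7 in RSL3. SLC43A3, known for moving purine bases, averaged 306 ± 97.7 and 276 ± 65.4, and SLC43A1, which encodes LAT3, 174 ± 40.8 and 158 ± 12.4. The adjusted p of these 3 genes lay between 0.745 and 0.841. Without RSL3+ID library 2 the estimates of SLC43A3 and SLC43A1 were −0.12 and −0.071.

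In the SLC6 family, which uses sodium and chloride, SLC6A6 and SLC6A9 were tested and neither passed. SLC6A6 encodes the taurine carrier TauT. It had 2169, 1422 and 1867 normalised counts in RSL3+ID, against 1507, 1726 and 1489.9 in RSL3. The groups overlapped, with RSL3+ID library 2 the lowest of the 6 (log2 fold change 0.19, SE 0.17, adjusted p = 0.581). SLC6A9 encodes the glycine carrier GlyT1 and had 67.6, 105 and 93.4 in RSL3+ID, against 162, 140.5 and 151 in RSL3. All RSL3+ID libraries were below all RSL3 libraries. On the log2 scale the change was −0.78 (SE 0.27, unadjusted p = 0.0119, adjusted p = 0.138 from limma), and SLC6A9 passed without RSL3+ID library 2 (−0.92, adjusted p = 0.0476). SLC6A9 shares exon bases with CCDC24 and SLC6A6 with GRIP2, each on the opposite strand. SLC6A15, a neutral amino acid carrier best known from brain, had between 3.17 and 11.6 in RSL3+ID and between 11.4 and 12.5 in RSL3 and was not tested.

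Among the 4 mitochondrial carriers, none passed and 3 had positive estimates. SLC25A12 and SLC25A13 encode aralar and citrin, which exchange aspartate for glutamate in the malate-aspartate shuttle. SLC25A12 had 193, 179 and 196 normalised counts in RSL3+ID, against 172, 103 and 138 in RSL3. SLC25A13 had 189, 191 and 163 in RSL3+ID, against 231, 207 and 229 in RSL3. These paralogues had estimates of opposite sign, each without overlap between the groups, and the difference between them was not tested. SLC25A12 shares exon bases with METAP1D on the opposite strand, whose reads may be included, while SLC25A13 shares none with another annotated gene. On the log2 scale SLC25A12 differed by 0.49 (SE 0.25, adjusted p = 0.311) and SLC25A13 by −0.30 (SE 0.21, adjusted p = 0.465). The glutamate carrier SLC25A22 averaged 579 ± 81.1 in RSL3+ID and 521 ± 61.4 in RSL3 (0.15, adjusted p = 0.688). The ornithine carrier SLC25A15 averaged 109 ± 12.2 and 92.6 ± 12.2 (0.23, adjusted p = 0.673).

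**Figure D3:**
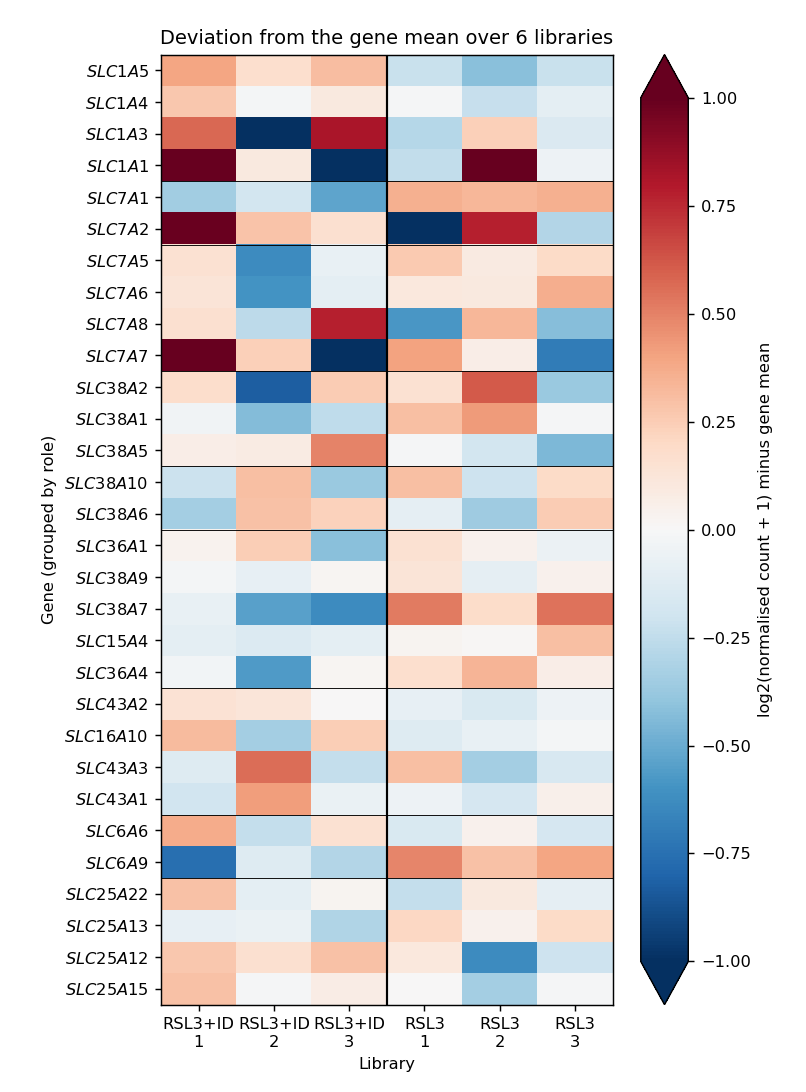
Deviation of each tested gene in each library from its mean over the 6 libraries (log2 scale, colour cut at −1 and 1), RSL3+ID libraries left of RSL3 libraries, genes grouped by role. SLC1A5 is above its mean in all RSL3+ID libraries and SLC7A1 below. RSL3+ID library 2 has SLC7A5, SLC7A6, SLC38A2 and SLC1A3 well below their means.

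Libraries of a group were not alike for these genes. RSL3+ID library 2 was the lowest of its group for 16 of the 30 members, where it was the lowest for 37.2% of all tested genes, and the highest for 8 (39.5% of all tested genes). RSL3 library 2 was the lowest of its group for 17 members (38.0% of all tested genes) and the highest for 9 (34.2%). Among members above 1000 counts RSL3+ID library 2 was the lowest of all 6 libraries for SLC7A5, SLC38A2, SLC38A1 and SLC6A6. Counts on all members together were 61074, 44958 and 56155 in the RSL3+ID libraries, against 54769, 53095 and 50876 in RSL3. The mesenchymal markers, 5 genes, summed to 10680, 6478 and 12744 normalised counts in RSL3+ID, against 12202, 11755 and 10829.8 in RSL3, so RSL3+ID library 2 was also the lowest there. The 8 epithelial markers summed to between 33108 and 43280 in RSL3+ID and between 42805 and 47477 in RSL3. The 6 leukocyte markers summed to between 529 and 851 in RSL3+ID and between 416 and 573 in RSL3, nearly all from CD14, with CD3E at 0. The 4 endothelial markers summed to between 68.4 and 205 in RSL3+ID and between 117 and 149.8 in RSL3. The part of these markers in the transporter results was not tested.

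**Figure D4:**
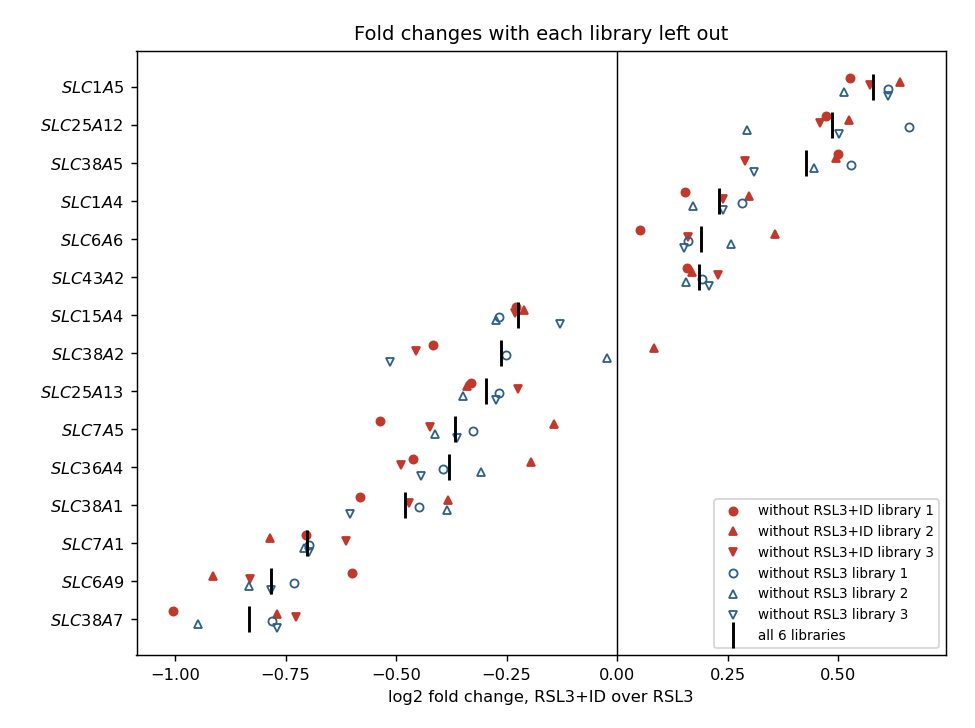
Log2 fold changes, RSL3+ID over RSL3, of the 15 members that were called, averaged at least 1000 normalised counts or did not overlap between groups, with all 6 libraries (black bars) and with each library left out (filled red for RSL3+ID libraries, open blue for RSL3 libraries). SLC1A5 stays between 0.51 and 0.64 and SLC7A1 between −0.79 and −0.61. SLC38A2 spans −0.51 to 0.084.

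Fold change also followed gene length in these libraries, with a Spearman correlation of −0.26 between log2 fold change and exon length over all tested genes; genes are no independent replicates of one another. The members are long, with a median exon length of 6128 bp, from 1837 bp for SLC25A15 to 11237 bp for SLC16A10, against 4893 bp over all tested genes. With each library's trend on exon length and base composition taken out, SLC7A1 passed (−0.61, adjusted p = 0.0444) and the median of the members was 0.075. Of the 32 members, 11 share exon bases with another annotated gene, 10 of them with a gene on the opposite strand.

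A further 4 lists of genes from the same pathways were read beside the members, chosen with earlier results of these data known. Of 45 further amino acid carriers and subunits, 21 were tested and none passed (limma), with 4 higher and 0 lower at an unadjusted p under 0.05 (19.3% of all tested genes). The smallest p belonged to MFSD12, needed for cysteine import into lysosomes, with 2590.3 ± 415 normalised counts in RSL3+ID and 1843 ± 133 in RSL3 (log2 fold change 0.48, adjusted p = 0.114). The creatine carrier SLC6A8 followed (0.41, adjusted p = 0.236). Of 40 genes of amino acid sensing at the lysosome, 38 were tested and none passed, with 2 higher and 6 lower at an unadjusted p under 0.05. LAMTOR5, a subunit of the Ragulator complex that anchors mTORC1, averaged 1925 ± 192 in RSL3+ID and 1274 ± 74.6 in RSL3 (0.59, adjusted p = 0.0580). FNIP1, a partner of the sensor folliculin, averaged 851 ± 191 and 1529 ± 417 (−0.83, adjusted p = 0.0666). The authors' deposited table lists both, with adjusted p of 0.00879 for LAMTOR5 and 0.00708 for FNIP1.

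Of 33 genes that use glutamine, glutamate, arginine or branched-chain amino acids, 28 were tested and 1 fell, BCAT1, the cytosolic branched-chain aminotransferase. BCAT1 had 480.5, 384 and 565 normalised counts in RSL3+ID, against 829, 839.8 and 779 in RSL3 (log2 fold change −0.79, SE 0.18, adjusted p = 0.0484). Of 28 regulators of the carriers, all tested, 1 rose and 1 fell. ATF4 had 16984, 19648 and 21408 normalised counts in RSL3+ID, against 11019, 11163 and 11768 in RSL3 (0.77, SE 0.13, adjusted p = 0.0247). TRIB3, a pseudokinase gene that ATF4 induces, had 11254, 13335 and 11946 in RSL3+ID, against 18405, 17482 and 21254 in RSL3 (−0.64, SE 0.13, adjusted p = 0.0392). The calls of BCAT1, ATF4 and TRIB3 were lost when RSL3+ID library 1 was left out, where limma called 0 genes in all (2594 at an unadjusted p under 0.05), and likewise for RSL3 library 1 (0 called, 1777 at that p). SLC1A5, SLC7A1, SLC7A5 and SLC38A2, which are among the carriers described as ATF4 targets, had estimates of 0.58, −0.70, −0.37 and −0.26 beside these. Elsewhere among the carriers and their heavy chain, which may include further such targets, SLC1A4 and SLC3A2 had positive estimates (0.23 and 0.21). SLC7A11 and SLC6A9 had negative ones (−0.26 and −0.78). A link between ATF4 and the estimates of the carriers was not tested. In the order given, the lists had 0 of 21, 0 of 38, 1 of 28 and 2 of 28 genes past the test, against 1.91% of all tested genes. Their median log2 fold changes were −0.0039, −0.083, −0.086 and −0.20, against −0.02 over all tested genes.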

How the data were processed

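RNA of 6 BEAS-2B libraries was measured by sequencing, per the labels' protocols. Per the submitters' processing notes, which assign no roles, the build was GRCh38 and the tools were DESeq2 1.30.0, StringTie 2.1.5, HISAT2 2.2.1 and Trimmomatic 0.39. The sources used here do not give the counting tool, annotation or strand setting. The table of expression that the authors deposited gives log2 values in 35233 entries, of which 214 repeat an Ensembl identifier with the same values and were left out. All columns share 1 lowest value, 6.04, the form of the variance-stabilising transform of the DESeq2 run by the authors. Inverting it gave normalised counts. For 894 genes their means differed from the signal column (base mean) in the authors' table of changes by a relative 2.5e-14 at most. Divided by the step of a column, 100.0% of values lay within 0.01 of a whole read. The deposited table of changes also holds log2 fold changes, a test score, p-values and adjusted p-values by the authors, per the file headers; its signs are those of RSL3+ID over RSL3.

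The 3 columns named RSL3 were taken as RSL3, and the 3 that add a garbled word, Chinese for "drug given" once decoded, as RSL3+ID. Libraries are numbered as in the columns, which are not tied to single samples. Tests used limma 3.58.1 in R 4.3.3 (trend and robust options, 2-sided) on log2(normalised count + 1) with a mean of at least 10, tested on simulated data first. The simulated counts had the same fixed dispersion for all genes and no deviating library. They therefore do not show how the test behaves with libraries as unlike as these. Exon lengths and positions are from GENCODE 29 (GRCh38), start regions from RefSeq. The member list uses no measured value as a criterion, but it and the other lists were drawn up with earlier results of these data known. By rule, values of every library are given for members that were called, averaged at least 1000 or did not overlap between groups; SLC1A3 was added after its values were seen. In the other lists the rule named called genes, else the 2 smallest p-values, with SLC3A2, SLC7A11 and ATF4. Alternatives were total-count and upper-quartile scaling, pseudocounts of 0.5 and 5, the deposited values, other filters, voom on recovered reads, removal of a length and GC trend, each library left out, and a replicate block.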

Additional observations from a re-analysis of the deposited data

How the results depend on the processing

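SLC1A5 and SLC7A1 were called under 8 of the 10 alternatives that keep all libraries, the exceptions being the length and GC trend, which left 0 members higher, and the replicate block. Leaving out 1 library gave between 0 and 1325 called genes in all (271 with all libraries), between 0 and 1 member higher and between 0 and 3 lower. The high ends came without RSL3+ID library 2, where SLC38A7 and SLC6A9 joined. Numbers in the columns were not shown to pair libraries (correlations of deviations between equal numbers −0.002, −0.246 and −0.18). With them as a replicate block limma called 0 genes, 0 members higher and 0 lower, with 1993 genes at an unadjusted p under 0.05. It also called 0 genes without RSL3+ID library 1 (2594 at that p) or RSL3 library 1 (1777). Voom called 233 genes with all libraries. Total-count scaling called 90 genes higher and 217 lower (153 and 118 with the authors' size factors, 242 and 86 with upper-quartile scaling) and moved the median of all genes to −0.11.

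The members' median of 0.12 was 0.028 with total-count scaling, 0.030 with no filter and between −0.092 and 0.081 with 1 library left out. The cause was not tested. SLC38A9 turned to 0.014 with upper-quartile scaling and 0.045 without the trend on length and GC, and 21 of 30 members kept their sign under every setting run. With 1 library left out the others ranged from −1.41 to 0.29 (SLC1A1), −0.25 to 0.76 (SLC1A3), −0.45 to 0.84 (SLC7A7), −0.51 to 0.084 (SLC38A2), −0.021 to 0.33 (SLC38A6), −0.11 to 0.00026 (SLC38A9), −0.23 to 0.098 (SLC36A1), −0.071 to 0.24 (SLC43A1) and −0.12 to 0.31 (SLC43A3). Depth limits the genes under 50 counts, where 1 read is worth 0.894 to 1.06 normalised counts.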

Other observations

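Other genes around the carriers are listed as changed in the authors' deposited table without passing limma here. PYCR1, the proline synthesis enzyme, has a log2 fold change of −0.62 there (adjusted p = 0.0149), and EIF2AK4, which encodes the amino acid sensor GCN2, −0.65 (adjusted p = 0.0199). NEDD4, a ubiquitin ligase gene, has −0.97 (adjusted p = 0.0172). These were named after their values were seen.

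SLC7A5P1, a pseudogene copy of SLC7A5, had 196, 119 and 137 normalised counts in RSL3+ID, against 310.1, 275 and 251 in RSL3. All RSL3+ID libraries were below all RSL3 libraries, while SLC7A5 itself overlapped between the groups. It was picked by its gene symbol and no sequences were compared. Its part in the values of SLC7A5 was not tested.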
